A study of Mus musculus with 20 samples.

Results

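This report describes the CTCF sites that were still called after auxin had been used to degrade CTCF in mouse embryonic stem cells, and compares them between the parental cell line and a Maz knockout line. A residual site is a peak of the CTCF antibody in a chromatin immunoprecipitation library (ChIP-seq) from cells kept in auxin for 2 days. There were 2381 such peaks in the parental line (ΔCTCF) and 2570 in the knockout line (ΔCTCF/ΔMAZ), together 4951 of the 136037 peaks that the 12 peak lists of the series hold on chromosomes 1 to 19, X and Y. A residual peak was named common when it overlapped a residual peak of the other line by at least 1 bp, and private otherwise. All cells were E14 cells grown with LIF and the 2i inhibitors, and in all of them, untreated ones included, CTCF carried an auxin-inducible degron. The untreated cells are named WT (parental) and ΔMAZ (knockout). Knockout lines were raised from single clones, and the titles name a single knockout line, B2, so that loss of MAZ and a property of that line cannot be told apart. Each of 3 antibodies (CTCF, MAZ and RAD21) had 1 peak list in each of 4 conditions. The 8 further samples of the series were second libraries of the CTCF and MAZ conditions. They came without a peak list and were not analysed here. Each group is thus a single list here, so differences could not be set against replicates and are given without p-values. The 95% intervals cover counting error over peaks only.

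CTCF is a zinc finger protein that binds a long, well-conserved DNA sequence and halts cohesin, the ring complex that extrudes chromatin loops, when cohesin meets it in the right orientation. RAD21 is a cohesin subunit, so its peaks mark places where cohesin pauses. The degron lets auxin recruit a ubiquitin ligase that has CTCF destroyed, although a small amount of protein can escape. MAZ is another zinc finger protein with insulator activity, and it binds GC-rich sequence, often at promoters. In the MAZ lists, 6265 peaks were called in WT and 6758 in ΔCTCF, against 33 in ΔMAZ and 32 in ΔCTCF/ΔMAZ.

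Sequences under some of the strongest residual peaks are shown first. The 3 common and 4 private sites below are shown because they are among the leading sites of their class by fold enrichment, the ratio of reads at the summit to the local background (each with 1 added), and carry a match to the 14-base CTCF consensus. Each line gives 60 bases of mm10 (GRCm38), 5′ to 3′ on the strand named, with the matched 14 bases in capitals. Coordinates are those of the printed bases. In these lines, near names the gene with the nearest protein-coding start at any distance, which was 100877 bp for Mrps10 and 83980 bp for Tank.
Common, near Arid3a, chr10:79925471-79925530, plus strand, 12 positions matched: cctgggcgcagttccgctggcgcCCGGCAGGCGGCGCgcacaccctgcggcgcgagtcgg
Common, near Eif1, chr11:100300482-100300541, minus strand, 13 positions matched: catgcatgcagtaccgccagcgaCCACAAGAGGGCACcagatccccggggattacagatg
Common, at the promoter of Rcc1, chr4:132345743-132345802, minus strand, 12 positions matched: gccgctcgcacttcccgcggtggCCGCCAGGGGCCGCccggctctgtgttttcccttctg
Private to ΔCTCF, near Mrps10, chr17:47267990-47268049, plus strand, 13 positions matched: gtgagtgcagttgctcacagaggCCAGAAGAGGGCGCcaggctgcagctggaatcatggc
Private to ΔCTCF, at the promoter of Prss48, chr3:86002567-86002626, plus strand, 13 positions matched: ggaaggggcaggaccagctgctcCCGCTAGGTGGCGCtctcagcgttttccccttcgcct
Private to ΔCTCF/ΔMAZ, near Tank, chr2:61494538-61494597, minus strand, 12 positions matched: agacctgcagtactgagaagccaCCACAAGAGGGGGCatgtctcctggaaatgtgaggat
Private to ΔCTCF/ΔMAZ, near Slc4a3, chr1:75653717-75653776, plus strand, 14 positions matched: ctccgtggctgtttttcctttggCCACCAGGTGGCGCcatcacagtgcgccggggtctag
As the sites were picked for a match, they do not show how often each class held one. Several other leading sites matched only 10 or 11 positions. Among them were the strongest ΔCTCF peak, nearest Gpr19 (11 positions), and the next one, at the Pcdhgb7 promoter (10 positions). Matches to at least 12 of the 14 positions, on either strand, also occurred in 3.21% of windows of the same length placed 500 bp from the summits of common ΔCTCF peaks, and in 2.96% of such windows around all WT peaks.

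Most residual CTCF peaks of either list were common to both lines, whereas fewer of the merged sites were common than were private to 1 line. Of the ΔCTCF peaks, 1542 (64.8%, 95% interval 62.8 to 66.7) overlapped a ΔCTCF/ΔMAZ peak, and of the ΔCTCF/ΔMAZ peaks, 1543 (60.04%, 58.1 to 61.9) overlapped a ΔCTCF peak. Merging both lists gave 3408 sites, of which 1542 (45.2%) were common, 839 were private to ΔCTCF and 1027 were private to ΔCTCF/ΔMAZ. The knockout library was 1.81 times as deep as the parental one by an index taken from the lowest local background of its peaks. Scaled to the parental index, it kept 2412 of its 2570 peaks, and the common shares became 62.7% of ΔCTCF and 61.9% of ΔCTCF/ΔMAZ. Both shares count the same overlaps, so the gap between them reflects only the lengths of the lists. Read depth itself is unknown. Common peaks lay on the same spot in both lines. The median distance between their summits was 21 bp, and 83.3% of 1542 pairs were within 50 bp. Private peaks were mostly far from any residual peak of the other line, with a median distance of 142064 bp (95% interval 123361 to 165441) for ΔCTCF and 124614 bp (109993 to 144228) for ΔCTCF/ΔMAZ. Another 11.1% of ΔCTCF private peaks and 11.2% of ΔCTCF/ΔMAZ private peaks had one within 10 kb.

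Residual sites were among the strongest sites before auxin. Peaks were ranked by fold enrichment within a list, with 100 for the strongest. Common peaks had a median rank of 91.7 (95% interval 90.9 to 92.4) in WT for the ΔCTCF list and of 93.1 (92.4 to 93.5) in ΔMAZ for the ΔCTCF/ΔMAZ list. Private peaks had lower but still high ranks, 82.8 (80.8 to 83.7) in WT for ΔCTCF and 87.4 (86.4 to 88.1) in ΔMAZ for ΔCTCF/ΔMAZ. Among all CTCF peaks of WT, 8.83% were still called in ΔCTCF and 5.82% were called in both auxin lists. Among all CTCF peaks of ΔMAZ, 9.72% were still called in ΔCTCF/ΔMAZ and 5.92% in both. The share rose over 10 about equal groups of untreated strength. In the strongest group, 41.2% (39.4 to 43.1) of WT peaks and 51.5% (49.5 to 53.4) of ΔMAZ peaks were still called, against 2.65% and 2.46% in the sixth. It did not rise all the way from the bottom: the weakest group of WT kept 1.26% (0.897 to 1.76) of its peaks, more than the 0.302% (0.153 to 0.594) of the next one, and the weakest group of ΔMAZ kept 1.23% (0.854 to 1.78) against 0.239% (0.116 to 0.492).

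**Figure D1:**
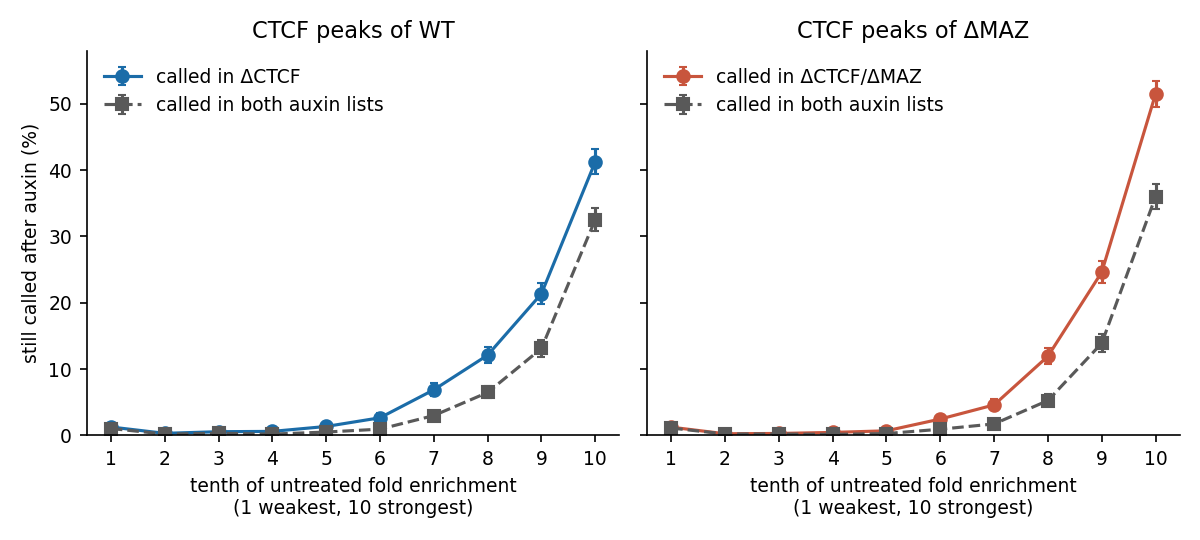
Share of untreated CTCF peaks still called after auxin, in percent, over 10 equal groups of untreated fold enrichment, for WT (left) and ΔMAZ (right). Points are shares, bars are Wilson 95% intervals (counting error only), solid lines count peaks called in the same line and dashed lines peaks called in both lines. The strongest group reached 41.2% in ΔCTCF and 51.5% in ΔCTCF/ΔMAZ, and both curves lie near 0 below the middle groups apart from a small rise in the weakest group.

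A private peak was seldom a site that the other line lacked before auxin. Of the peaks private to ΔCTCF, 95.2% (93.6 to 96.5) overlapped a CTCF peak of untreated ΔMAZ cells, and of those private to ΔCTCF/ΔMAZ, 97.0% (95.7 to 97.9) overlapped one of WT. Their untreated ranks had a small median difference between the lines. Own rank minus other rank had a median of -0.39 (-1.17 to 0.0989) for ΔCTCF private peaks and 1.11 (0.507 to 1.79) for ΔCTCF/ΔMAZ private peaks. Single peaks differed more, with quartiles of -7.67 and 5.42 for the former and of -3.94 and 8.38 for the latter. Of the 22575 WT peaks that were also called in ΔMAZ, 6.80% were residual in both lines, 3.51% in ΔCTCF alone, 4.38% in ΔCTCF/ΔMAZ alone and 85.3% in neither. The median WT fold enrichment of these classes was 29.0, 23.3, 24.6 and 13.6.

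Whether a residual peak was common followed its strength in its own list. Median fold enrichment was 9.46 (9.29 to 9.63) for common and 7.41 (7.34 to 7.41) for private ΔCTCF peaks, and 9.66 (9.42 to 10.0) for common and 7.53 (7.53 to 7.66) for private ΔCTCF/ΔMAZ peaks. These peaks rested on few reads. The median pileup, the number of overlapping fragments at the summit, was 13 for common and 10 for private ΔCTCF peaks, and 16 and 12 in ΔCTCF/ΔMAZ, against 21 over all WT and 18 over all ΔMAZ peaks. Pileup also moves with depth, and the depth index was 1.95 in ΔCTCF against 3.08 in WT, and 3.53 in ΔCTCF/ΔMAZ against 2.78 in ΔMAZ. From the weakest to the strongest of 5 equal groups, the common share rose from 42.7% (38.3 to 47.1) to 94.0% (91.5 to 95.8) in ΔCTCF and from 38.7% (34.5 to 43.1) to 90.8% (87.9 to 93.0) in ΔCTCF/ΔMAZ. Only 29 of 480 peaks of the strongest ΔCTCF group and 47 of 509 of the strongest ΔCTCF/ΔMAZ group were private. At common sites the fold enrichments of both lines went together, with Spearman's rho of 0.56 and Pearson's r of 0.64 on the log2 scale across 1542 sites. This is a description across sites of 1 library per line, and the sites share untreated strength, for which rho was 0.75. More than a 2-fold difference in fold enrichment was found at 50 of the 1542 sites, 27 of them higher in ΔCTCF/ΔMAZ and 23 higher in ΔCTCF.

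**Figure D2:**
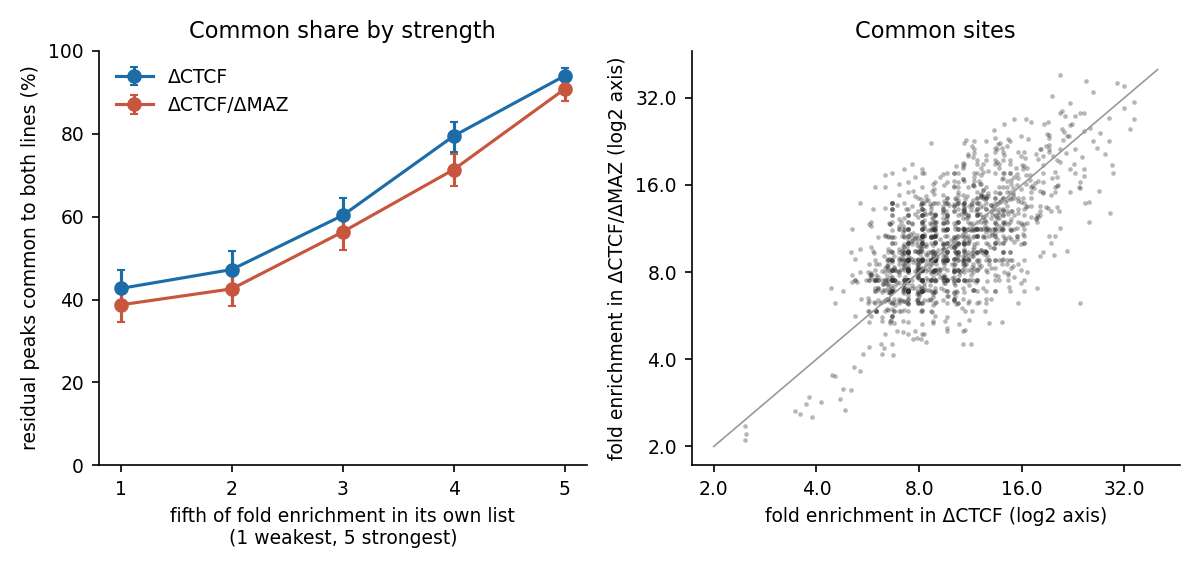
Left, share of residual peaks that were common to both lines, in percent, over 5 equal groups of fold enrichment in the peak's own list, with Wilson 95% intervals. Right, fold enrichment of the 1542 common sites in ΔCTCF (x) and ΔCTCF/ΔMAZ (y) on log2 axes, 1 point per site, with the line of equal values. The common share exceeds 90% in the strongest group of both lists, and the points scatter around the line.

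The leading common sites away from promoters were called in all 4 CTCF lists. The site 1538 bp upstream of Arid3a, which encodes a DNA-binding protein, had fold enrichments of 58.9 in WT, 67.2 in ΔMAZ, 30.3 in ΔCTCF and 36.0 in ΔCTCF/ΔMAZ. The site nearest Eif1, a translation initiation factor gene, had 43.5, 45.9, 31.8 and 29.5 in the same order. At both sites the untreated values exceeded the auxin values. The sites nearest Grb2 (an adaptor of receptor tyrosine kinases), Gpr19 (an orphan receptor) and Rap1gap (a regulator of Rap GTPases) had fold enrichments of 25.9 to 34.1 in ΔCTCF and of 27.0 to 33.5 in ΔCTCF/ΔMAZ. These 5 sites also had a RAD21 peak in all 4 conditions. Near Rap1gap this peak had a RAD21 fold enrichment of 42.6 in WT, 48.6 in ΔMAZ, 41.9 in ΔCTCF and 33.4 in ΔCTCF/ΔMAZ. Values of different libraries are not on a common scale, so these rows of values compare ranks within a library rather than amounts of protein.

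At promoters, the leading common sites belonged to Pcdhgb7 (a clustered protocadherin), Kmt2a (a histone methyltransferase), Vps18 (vacuolar protein sorting), Rcc1 (the exchange factor of the Ran GTPase), Igsf11 (an adhesion protein) and Erlin2 (a protein of the endoplasmic reticulum). The Vps18 site was the strongest before auxin, with fold enrichments of 64.6 in WT and 72.0 in ΔMAZ, and kept 22.2 in ΔCTCF and 30.8 in ΔCTCF/ΔMAZ. The Kmt2a site differed from it. Its fold enrichment was 16.8 in WT, 25.8 in ΔMAZ, 24.3 in ΔCTCF and 28.3 in ΔCTCF/ΔMAZ, so it stood at rank 64.3 in WT and at rank 99.0 in ΔCTCF. It had no RAD21 peak in any of the 4 conditions, whereas the other 5 promoter sites had one in all 4. MAZ peaks of WT and of ΔCTCF overlapped the sites at Kmt2a, Vps18 and Erlin2.

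The strongest private peaks had been strong in both untreated lists. The site in an intron of Acad12, an acyl-CoA dehydrogenase family gene, had a fold enrichment of 19.96 in ΔCTCF with a pileup of 30, and 27.2 in WT and 34.7 in ΔMAZ, but was not called in ΔCTCF/ΔMAZ. The promoter site of the protease gene Prss48 was among the strongest of both untreated lists, with 54.0 in WT and 55.8 in ΔMAZ. It had 15.6 in ΔCTCF and was not called in ΔCTCF/ΔMAZ, where it also had no RAD21 peak. The sites nearest Mrps10 and Lrrc30 had 18.9 and 14.5 in ΔCTCF. Private to ΔCTCF/ΔMAZ were the site nearest Tank, a regulator of NF-κB signalling, at 83980 bp from its start (18.2), and one in Nos1, the neuronal nitric oxide synthase gene (18.2). The others were in a coding exon of Gm9964 (17.3) and nearest Slc4a3, an anion exchanger gene (16.9). All 8 were called in both untreated lists, at fold enrichments of 19.9 to 55.8. The 4 sites private to ΔCTCF/ΔMAZ still had a RAD21 peak in ΔCTCF. Its fold enrichment was 8.93 at Gm9964, 18.4 at Nos1, 20.5 at the Tank site and 34.1 at the Slc4a3 site. Of the 4 sites private to ΔCTCF, those of Acad12 (9.60), Mrps10 (5.78) and Lrrc30 (10.1) had one in ΔCTCF/ΔMAZ. Over all private peaks, 52.6% of those of ΔCTCF had a RAD21 peak in ΔCTCF/ΔMAZ and 85.3% of those of ΔCTCF/ΔMAZ had one in ΔCTCF.

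Common peaks carried the CTCF consensus more often than private ones. Over all residual peaks the share was 76.1% (74.3 to 77.8) in ΔCTCF, below that of WT. It was 79.8% (78.2 to 81.3) in ΔCTCF/ΔMAZ, above that of ΔMAZ. At least 12 of 14 positions matched within 50 bp of the summit in 80.1% (78.0 to 82.0) of common and 68.8% (65.6 to 71.8) of private ΔCTCF peaks, beside 79.2% of all WT peaks. In ΔCTCF/ΔMAZ the shares were 82.7% (80.7 to 84.5) and 75.4% (72.6 to 77.9), beside 76.2% of all ΔMAZ peaks. Common minus private was 11.3 percentage points (7.64 to 15.1) in ΔCTCF and 7.33 (4.12 to 10.6) in ΔCTCF/ΔMAZ. Among the 1000 strongest peaks of each list the difference in ΔCTCF was 2.20 points, and with the window widened to 100 bp that in ΔCTCF/ΔMAZ was 0.990 points. The fuller the match, the more often a site was residual. Of WT peaks with 14 matched positions 14.2% (13.2 to 15.3) were called in ΔCTCF, against 7.21% (6.64 to 7.81) of those with 12 and 4.18% (3.27 to 5.32) of those with 10. In the knockout line these shares were 15.1% (14.03 to 16.3), 8.27% (7.65 to 8.93) and 3.84% (3.05 to 4.83). Untreated strength moved with the match as well, with a median WT fold enrichment of 16.6 at 14 positions, 12.7 at 12 and 8.72 at 10. Their separate parts were not tested beyond 5 groups of untreated strength, within which the odds of holding the consensus were 1.14 times (0.990 to 1.32) as high for residual as for other WT peaks and 1.27 times (1.10 to 1.47) for ΔMAZ peaks. Without the weakest group the ratios were 1.32 (1.13 to 1.54) and 1.43 (1.23 to 1.67).

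Residual sites lay outside protein-coding transcripts more often than untreated sites did, in a comparison not matched for untreated strength. Intergenic here means outside all protein-coding transcripts, so it takes in non-coding genes and sites just upstream of a start. Summits were intergenic for 71.1% (68.8 to 73.3) of common and 60.5% (57.2 to 63.8) of private ΔCTCF peaks and for 71.0% (68.7 to 73.2) of common and 68.7% (65.8 to 71.5) of private ΔCTCF/ΔMAZ peaks, with 53.3% among all WT peaks and 54.1% among all ΔMAZ peaks. Introns held 24.1% of common and 32.5% of private ΔCTCF peaks, and 41.5% of all WT peaks. The gap between common and private was thus clear in ΔCTCF, at 10.5 points (6.54 to 14.5), and within counting error in ΔCTCF/ΔMAZ, at 2.22 points (-1.38 to 5.87). GC content around the summit was 52.2% at common and 49.8% at private ΔCTCF peaks, and 51.7% and 50.7% in ΔCTCF/ΔMAZ, against a median of 48.3% over all WT peaks.

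Promoters, taken as the 1 kb on either side of the start of a protein-coding gene, held 13.7% (12.1 to 15.5) of common and 10.1% (8.27 to 12.4) of private ΔCTCF peaks, and 13.7% (12.1 to 15.5) of common and 9.54% (7.89 to 11.5) of private ΔCTCF/ΔMAZ peaks. Among all untreated peaks the share was 8.2% in WT and 8.22% in ΔMAZ. Within groups of like untreated strength, residual peaks exceeded the others at promoters beyond counting error in the weakest group only. In the weakest of 5 groups, 46.3% (32.1 to 61.2) of 41 residual WT peaks lay at promoters against 7.10% (6.44 to 7.83) of those no longer called, and 48.6% (33.0 to 64.4) of 35 residual ΔMAZ peaks against 6.75% (6.10 to 7.47). In the strongest group, 32.1% (28.7 to 35.6) of the 702 WT promoter peaks were still called in ΔCTCF, beside 31.2% (29.9 to 32.5) of the 4578 peaks elsewhere. In the knockout line 37.2% (33.7 to 40.8) of promoter peaks and 38.3% (36.8 to 39.7) of the others in that group were still called. Over the 5 groups, the odds of lying at a promoter were 1.09 times (0.942 to 1.26) as high for residual as for other WT peaks, and 0.965 times (0.834 to 1.12) for ΔMAZ peaks. Without the weakest group the ratios were 0.996 (0.857 to 1.16) and 0.885 (0.761 to 1.03). That group held only 19 residual WT promoter peaks, against 225 in the strongest. Without it promoters still held 12.96% of common and 9.76% of private ΔCTCF peaks, and 13.02% and 9.38% in ΔCTCF/ΔMAZ. Promoters held 13.6% of residual and 13.1% of other WT peaks in the strongest group, both above the 8.2% of all WT peaks. Residual peaks of low untreated rank also had a high local background, as given under other observations. The 1542 common ΔCTCF peaks had 1379 nearest genes. Of the 792 nearest genes of ΔCTCF private peaks, 186 (23.5%) were also nearest to a ΔCTCF/ΔMAZ residual peak, as were 237 (24.7%) of the 960 of ΔCTCF/ΔMAZ private peaks for ΔCTCF. The share over nearest genes of all untreated peaks was not counted, so these overlaps cannot be called high or low.

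RAD21 was found at most residual sites, and more often at common ones. In ΔCTCF, 95.01% (93.8 to 95.99) of common and 79.98% (77.1 to 82.5) of private CTCF peaks overlapped a RAD21 peak of the same condition, against 27.9% of all CTCF peaks of WT. In ΔCTCF/ΔMAZ, it was 87.8% (86.0 to 89.3) of common and 64.5% (61.5 to 67.3) of private peaks, against 16.1% of all CTCF peaks of ΔMAZ. Common minus private was 15.03 points (12.2 to 18.04) in ΔCTCF and 23.3 points (19.9 to 26.6) in ΔCTCF/ΔMAZ. The gap was smaller, 2.71 and 9.47 points, among the 1000 strongest peaks of each list. Before auxin the classes were closer, with 94.6% of common and 87.1% of private ΔCTCF peaks at a RAD21 peak of WT, and 96.8% and 94.2% of ΔCTCF/ΔMAZ peaks at one of ΔMAZ. Of the private sites, those of the knockout line had RAD21 more often in either auxin list. In the RAD21 list of ΔCTCF/ΔMAZ it was 64.5% of them against 52.6% (49.2 to 55.9) of the sites private to ΔCTCF, and in that of ΔCTCF 85.3% (83.0 to 87.3) against 79.98%. The RAD21 list of ΔCTCF was the longer, with 17912 peaks against 6400, and its depth index was 15.2 against 6.47. Scaled to the lower index it kept 12458 peaks, and the shares in ΔCTCF became 94.0% for common and 76.9% for private peaks. Asking for a reciprocal overlap of 50% turned the order of the lines, with 65.3% in ΔCTCF and 82.8% in ΔCTCF/ΔMAZ at common sites and 54.2% and 59.8% at private sites.

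**Figure D3:**
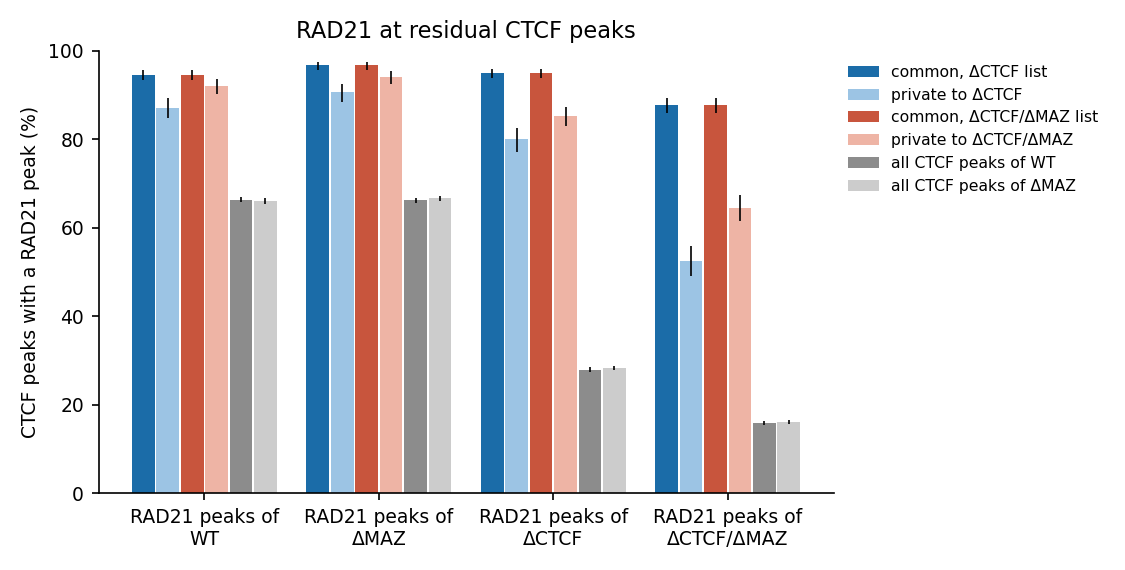
Share of CTCF peaks that overlapped a RAD21 peak, in percent, for the RAD21 lists of the 4 conditions. Bars show common and private residual peaks of each auxin list and, in grey, all CTCF peaks of the untreated lists, with Wilson 95% intervals. Private peaks fall below common peaks in each RAD21 list, most in that of ΔCTCF/ΔMAZ, where 52.6% of ΔCTCF private peaks had one.

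The RAD21 peaks at common sites were also stronger. Those in the ΔCTCF list had a median RAD21 fold enrichment of 13.5 (12.96 to 13.9) at common and 8.34 (7.89 to 8.81) at private ΔCTCF peaks, where the median of all RAD21 peaks of ΔCTCF was 4.85. In ΔCTCF/ΔMAZ the medians were 11.1 (10.8 to 11.4) at common and 8.24 (7.90 to 8.47) at private ΔCTCF/ΔMAZ peaks, with 6.52 over all RAD21 peaks. Common sites thus ranked high among the cohesin peaks that remained, at a median rank of 93.3 in RAD21 ΔCTCF and 83.1 in RAD21 ΔCTCF/ΔMAZ.

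Because residual sites had been stronger to begin with, RAD21 was compared between residual and no longer called CTCF sites within 5 equal groups of untreated CTCF strength. In the strongest group, 93.7% (92.4 to 94.8) of 1652 residual WT sites had a RAD21 peak in ΔCTCF, against 54.5% (52.9 to 56.2) of 3628 sites whose CTCF peak was gone. In the knockout line the shares were 81.8% (80.1 to 83.5) of 1961 and 30.2% (28.6 to 31.8) of 3184. The gap held in each of the groups. In the middle group, 87.7% (80.1 to 92.7) of 106 residual sites and 19.3% (18.2 to 20.3) of the others had RAD21 in ΔCTCF, and 68.3% (57.6 to 77.4) of 82 against 6.19% (5.56 to 6.88) in ΔCTCF/ΔMAZ. Over the 5 groups, the Mantel-Haenszel odds ratio, a mean of the odds ratios within groups, was 15.1 (12.8 to 17.8) in ΔCTCF and 11.8 (10.6 to 13.3) in ΔCTCF/ΔMAZ. For the RAD21 lists of untreated cells it was 2.62 (2.18 to 3.16) and 3.72 (2.88 to 4.82), so these sites had differed less before auxin. Peaks of 5 groups still vary in strength within a group, and the part of this in the odds ratio was not tested.

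**Figure D4:**
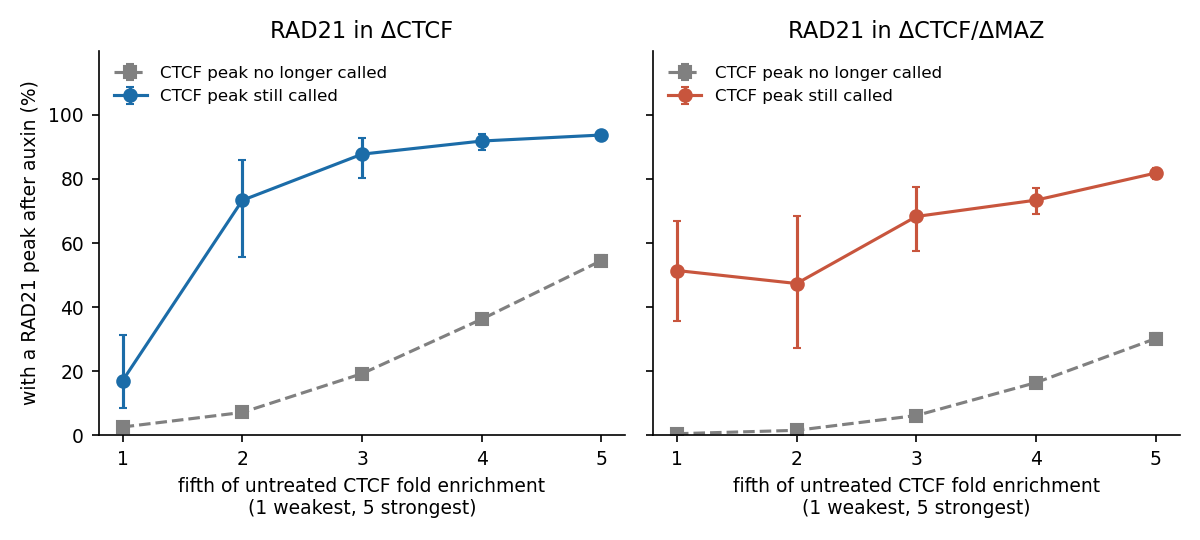
Share of untreated CTCF sites with a RAD21 peak after auxin, in percent, over 5 equal groups of untreated CTCF fold enrichment, for ΔCTCF (left) and ΔCTCF/ΔMAZ (right). Circles are sites whose CTCF peak was still called, squares are sites where it was not, and bars are Wilson 95% intervals. Residual sites lie above the others in each group, at 93.7% against 54.5% in the strongest group of ΔCTCF.

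Few residual CTCF sites were at MAZ peaks, and the shares of the sites private to either line lay within counting error of each other. MAZ peaks of ΔCTCF were found at 4.67% (3.72 to 5.84) of common and 2.03% (1.27 to 3.22) of private ΔCTCF peaks, where the share over all WT CTCF peaks was 1.41%. They were found at 4.54% (3.61 to 5.69) of common and 1.95% (1.26 to 2.99) of private ΔCTCF/ΔMAZ peaks, where the share over all ΔMAZ CTCF peaks was 1.4%. The MAZ antibody also gave peaks at some of these sites in knockout cells, which lack MAZ. Peaks of either knockout MAZ list overlapped 20 of the 1542 common and 1 of the 839 private ΔCTCF peaks. Of all 26392 WT peaks, 14 overlapped the MAZ list of ΔMAZ and 18 that of ΔCTCF/ΔMAZ. The part of such signal in the shares above was not tested. MAZ peaks of WT were found at 2.86% (1.93 to 4.22) of ΔCTCF private and 1.95% (1.26 to 2.99) of ΔCTCF/ΔMAZ private peaks. At common peaks the shares were 4.35% and 4.41%, and over all CTCF peaks 1.82% in WT and 1.87% in ΔMAZ. Of the 72 common ΔCTCF peaks with a MAZ peak of ΔCTCF, 50 were at promoters, which is 23.7% (18.5 to 29.9) of the 211 common promoter peaks. Over all 2165 WT promoter peaks the share was 12.7% (11.3 to 14.1). It was 16.1% over the 702 of the strongest of 5 groups, with an interval that overlaps that of the common ones. Among the strongest WT promoter peaks, 38.9% (30.5 to 48.2) of 113 with a MAZ peak of ΔCTCF and 30.7% (27.1 to 34.6) of 589 without one were residual in ΔCTCF. In the knockout line the shares were 42.9% (34.1 to 52.1) of 112 and 36.1% (32.3 to 40.1) of 590. Both pairs of intervals overlap. Over promoters and other places together, 42.0% (34.4 to 50.0) of the 150 WT peaks of the strongest group with a MAZ peak were residual, beside 31.0% (29.7 to 32.3) of 5130 without one. These intervals do not overlap. In the knockout line the shares were 42.2% (34.5 to 50.3) of 147 and 38.0% (36.7 to 39.3) of 4998, with intervals that overlap. Over all strengths, 22.4% (18.4 to 26.9) of WT peaks and 24.5% (20.3 to 29.1) of ΔMAZ peaks with a MAZ peak of ΔCTCF were residual, against 8.83% of all WT and 9.72% of all ΔMAZ peaks.

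A few residual peaks were in neither untreated list, 39 (1.64%) in ΔCTCF and 28 (1.09%) in ΔCTCF/ΔMAZ. All but 1 of each were private. Of the 39, 0 held the consensus, and of the 28, 1 did. RAD21 peaks of the same condition overlapped 1 of the 39 and 2 of the 28. The strongest were in introns of Def8 and Ppp1r13b in ΔCTCF, with fold enrichments of 10.4 and 7.95 on pileups of 13 and 10, and nearest Lhx9, a homeobox gene, in ΔCTCF/ΔMAZ, with 9.13 on a pileup of 14. The Lhx9 site had a RAD21 peak in all 4 conditions, whereas those at Def8 and Ppp1r13b had none.

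Gene groups in which CTCF boundaries are well known were looked at next, counting untreated CTCF peaks within 20 kb of a member gene. Hox genes, the homeobox genes that pattern the body axis and whose clusters CTCF divides, kept the largest share of the 5 groups. In ΔCTCF 8 of 23 WT peaks (34.8%, 18.8 to 55.1) were residual, beside 8.83% over all WT peaks, and in ΔCTCF/ΔMAZ 10 of 30 (33.3%, 19.2 to 51.2), beside 9.72%. Their median untreated ranks were 61.7 and 56.7. The strongest of 5 untreated groups held 8 of the WT and 7 of the ΔMAZ peaks near Hox genes. Of each, 5 were residual, out of the 8 residual peaks for ΔCTCF and the 10 for ΔCTCF/ΔMAZ. Among all autosomal peaks of that strength group, 31.3% of WT and 38.2% of ΔMAZ peaks were residual. No interval was computed for these few Hox peaks. Of the 9 ΔCTCF residual peaks near Hox genes, 8 were common. The strongest lay at Hoxa5, with fold enrichments of 35.7 in WT, 23.4 in ΔMAZ, 12.3 in ΔCTCF and 14.6 in ΔCTCF/ΔMAZ, then at Hoxc10 (11.1 in ΔCTCF), Hoxd8 (10.7) and Hoxc5 (10.3). The Hoxc5 site was weak before auxin, with 6.58 in WT and 7.53 in ΔMAZ. Clusters share peaks among neighbouring genes, so the counts are of peaks and not of genes.

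Clustered protocadherins, cell adhesion genes whose promoters CTCF helps to choose, kept 5 of 51 peaks in ΔCTCF (9.80%, 4.26 to 20.98) and 4 of 45 in ΔCTCF/ΔMAZ (8.89%, 3.51 to 20.7), close to the shares over all peaks. All of those that stayed lay at the gamma cluster, and the strongest at promoters of its b subfamily, with 9 to 11 positions of the consensus. The Pcdhgb7 promoter had fold enrichments of 36.6 in WT, 53.0 in ΔMAZ, 34.0 in ΔCTCF and 31.0 in ΔCTCF/ΔMAZ, while that of Pcdhgb6 had 32.6, 37.4, 18.5 and 9.42. The Pcdhgb4 promoter, with 12.2 in ΔCTCF, was not called in ΔCTCF/ΔMAZ. Imprinted genes kept 3 of 57 peaks in ΔCTCF (5.26%, 1.81 to 14.4) and 7 of 50 in ΔCTCF/ΔMAZ (14%, 6.95 to 26.2). Both intervals hold the shares over all peaks, 8.83% and 9.72%. Common sites of this group were near Trappc9 and Usp29, both with 14 matched positions, sites near Airn and Kcnk9 were private to ΔCTCF, and sites near Cdkn1c and Mcts2 were among the 5 private to ΔCTCF/ΔMAZ. Core pluripotency genes kept 4 of 30 in ΔCTCF (13.3%, 5.31 to 29.7) and 2 of 32 in ΔCTCF/ΔMAZ (6.25%, 1.73 to 20.1), and both intervals hold the shares over all peaks, 8.83% and 9.72%. Near Sox2, 2 of 3 WT peaks remained in ΔCTCF, with fold enrichments of 10.1 and 8.11, and none was called in ΔCTCF/ΔMAZ, while sites near Lin28a and Sall4 were common.

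The group of cohesin subunits and regulators kept 11 of 34 peaks in ΔCTCF (32.4%, 19.1 to 49.2) and 8 of 31 in ΔCTCF/ΔMAZ (25.8%, 13.7 to 43.2), but most of these lay within Ctcf itself. Without Ctcf the counts were 2 of 23 (8.70%, 2.42 to 26.8) and 3 of 19 (15.8%, 5.52 to 37.6), with intervals that hold the shares over all peaks, 8.83% and 9.72%. The common ones among these were a site at the promoter of Snrpd1, near the acetyltransferase gene Esco1, and the promoter of Pds5b, a cohesin regulator, with fold enrichments of 40.7 in WT, 24.2 in ΔMAZ, 10.8 in ΔCTCF and 8.49 in ΔCTCF/ΔMAZ.

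Ctcf, the gene of the degraded protein, lies on chromosome 8 at 105636568 to 105682922 (GRCm38, plus strand) and has 10 coding exons in the GENCODE annotation. Each of the 10 coding exons held its own residual peak in ΔCTCF, with fold enrichments of 6.44 to 17.0, and no residual peak of ΔCTCF lay elsewhere in the gene. In ΔCTCF/ΔMAZ 6 coding exons held a peak, with 6.28 to 15.7. The location was chosen after the values were seen. None of these 16 peaks reached 12 positions of the consensus. The pattern was present before auxin, at 8 coding exons in WT (5.12 to 13.3) and at 9 in ΔMAZ (6.46 to 17.3). It was also present with the other antibodies. RAD21 peaks covered 8 of the coding exons in ΔCTCF, 2 in WT, 4 in ΔMAZ and 3 in ΔCTCF/ΔMAZ, and MAZ peaks covered 7 in WT and 2 in ΔCTCF but 0 in the short MAZ lists of both knockout conditions. In each of the 10 lists with a peak in a coding exon, the first coding exon had the highest fold enrichment. The 10 peaks of ΔCTCF were among 52 residual ΔCTCF peaks in coding exons, and no other gene held more than 2 of these. Maz, the gene knocked out, had 2 residual peaks on its coding exons in ΔCTCF/ΔMAZ, with fold enrichments of 4.81 and 5.31, and 0 in ΔCTCF. Of these 2 peaks, 1 held the consensus. Before auxin a CTCF peak lay on 1 Maz coding exon in each line, at 5.68 in WT and 7.12 in ΔMAZ. Coding exons of Maz were also overlapped by MAZ peaks of WT and ΔCTCF and by RAD21 peaks of ΔCTCF and ΔMAZ. What gives peaks of 3 antibodies on the coding exons of Ctcf was not tested, nor whether these peaks mark bound CTCF at all. They are included in the counts above except where Ctcf is left out.

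**Figure D5:**
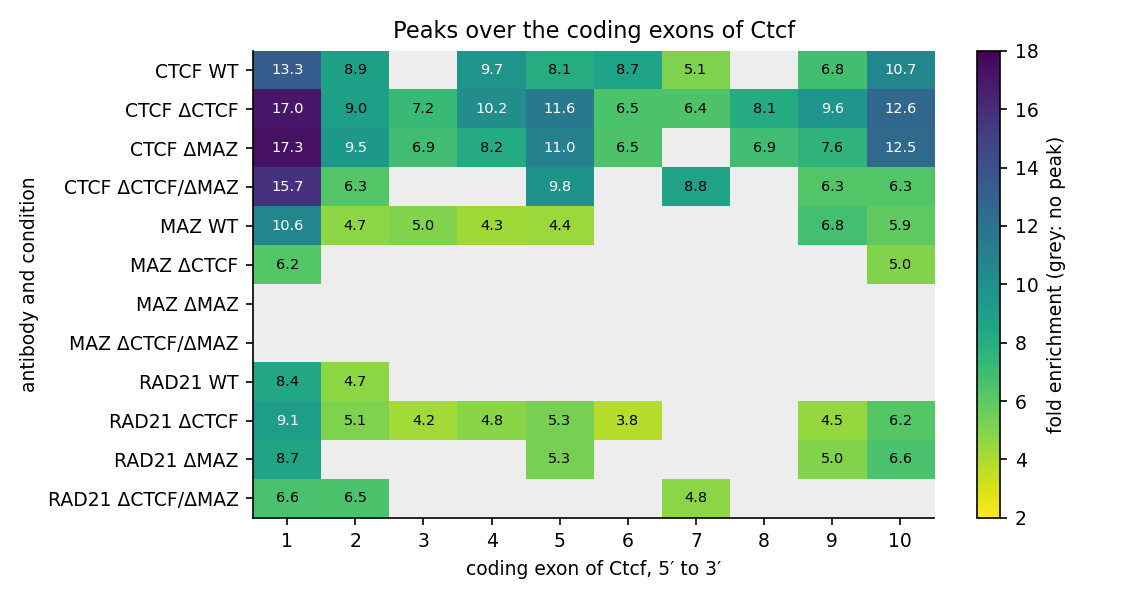
Fold enrichment of the strongest peak over each coding exon of Ctcf (x, numbered 5′ to 3′) in the 12 lists (y), with grey where no peak was called. The ΔCTCF list of the CTCF antibody has a peak on all 10 coding exons, from 6.44 to 17.0, and MAZ and RAD21 lists have peaks on some of the same exons.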

How the data were processed

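ChIP-seq peak lists of mouse embryonic stem cells were used, 1 per antibody and condition. Per the study's methods, the authors aligned reads to mm10 with Bowtie 2, filtered them with SAMtools and called peaks with MACS, on single libraries as far as the sources say. The methods name both an early MACS release and MACS 2, and the columns are those of MACS 2, and the input control is not given in the sources used here. The Drosophila spike-in did not enter the lists. Fold enrichment, as deposited, is the ratio of pileup to local background at the summit after adding 1 to both. The score and the −log10 values of p and q were deposited as the caller gave them. A threshold therefore hides sites under it, and a site that was not called may still be bound.

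From these columns the pileup and background were solved to within 0.001 for every peak, and the lowest background of a list over its smallest peak width gave a depth index, from 1.95 (ΔCTCF) to 3.53 (ΔCTCF/ΔMAZ) among the CTCF lists. Peaks were overlapped by at least 1 bp with code written for this report, which was checked on simulated intervals against bedtools 2.31.1. Places and nearest starts of protein-coding genes came from GENCODE M21, and sequence from GRCm38. Shares have Wilson intervals, medians order-statistic intervals, differences Newcombe intervals and odds ratios Mantel-Haenszel intervals, all at 95%, in Python 3.11.15 with scipy 1.17.1. The scripts were tested on simulated data.

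Named sites were, by rule, the 6 common sites away from promoters and the 6 at promoters with the highest worse rank of the 2 auxin lists, the 4 strongest private sites per list, the 3 strongest in no untreated list, and up to 4 of each gene list, of whose 172 genes 171 were matched. One of the 6 sites away from promoters is not reported here. The members and lists were chosen with earlier results of these data known. The Ctcf and Maz exons, the sites near Airn, Kcnk9 and Snrpd1 and those weak before auxin were chosen after their values were seen, as were the RAD21 lists scaled to a like depth index and the counts without Ctcf.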

Additional observations from a re-analysis of the deposited data

How the results depend on the processing

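No paired analysis was possible because there was a single list per group, and leaving out a replicate was not possible for the same reason. Of 158 values under other settings, 112 stayed within the interval of the reported value. Common exceeded private residual peaks in untreated rank, promoter share, RAD21 share and consensus share in both lists under each setting that was run. The 46 values outside were as follows, ΔCTCF before ΔCTCF/ΔMAZ where both are given.

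A minimum −log10 q of 5 gave private peaks a RAD21 share of 83.8% in ΔCTCF and consensus shares of 72.4% and 77.9%. With each list reduced to its 1000 strongest peaks, the common share of ΔCTCF was 58.6%, and common and private peaks had untreated ranks of 95.2 and 88.9 in ΔCTCF and of 95.9 and 92.2 in ΔCTCF/ΔMAZ. Their RAD21 shares were 98.1% and 95.4% in ΔCTCF and 95.2% and 85.7% in ΔCTCF/ΔMAZ, their consensus shares 84.8% and 82.6%, and 84.98% and 83.1%. Their promoter shares were 16.04% for common ΔCTCF peaks and 15.9% and 13.3% for common and private ΔCTCF/ΔMAZ peaks, and rho at common sites was 0.47. Scaling the deeper list to the depth index of the shallower gave a common share of 62.7% in ΔCTCF. Without peaks that the MAZ lists of knockout cells also hold, the RAD21 share of common ΔCTCF peaks was 96.1%. Promoters of 2.5 kb held 18.9% of common and 15.3% of private ΔCTCF peaks and 18.9% and 14.1% in ΔCTCF/ΔMAZ. A reciprocal RAD21 overlap of 50% gave 65.3% and 54.2% for common and private ΔCTCF peaks, 82.8% and 59.8% in ΔCTCF/ΔMAZ, and odds ratios of 9.92 and 9.65 at like untreated strength. At least 11 consensus positions were matched in 88.1% and 77.9% of common and private ΔCTCF peaks and in 90.3% and 83.9% in ΔCTCF/ΔMAZ. At least 13 were matched in 59.7% and 50.4%, and in 60.7% and 54.4%. A window of 100 bp gave 89.4% and 85.2%, and 89.7% and 88.7%. With the RAD21 list of ΔCTCF scaled to the depth index of ΔCTCF/ΔMAZ, private ΔCTCF peaks had a share of 76.9%. Without Ctcf, the cohesin list kept 8.70% in ΔCTCF. The causes of these shifts were not tested.

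A peak list holds no value for a site below its threshold, and private peaks had a median pileup of 10 and 12 fragments, so a private site may be bound in both lines. Loss of MAZ, the clone and the library cannot be told apart.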

Other observations

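A small set of residual peaks had been among the weakest before auxin, with an untreated rank of up to 20. There were 39 in ΔCTCF and 34 in ΔCTCF/ΔMAZ, and 30 of each were common. Only 1 of each set held the consensus, against 79.1% of the other residual ΔCTCF peaks and 81.8% of those of ΔCTCF/ΔMAZ. Promoters held 19 of the 39 (48.7%, 33.9 to 63.8) and 16 of the 34 (47.1%, 31.4 to 63.3), against 11.7% and 11.5% of the others. The short MAZ lists of knockout cells, which lack the protein, had a peak at 16 of the 39 and 17 of the 34, against 3 of 2290 and 4 of 2504 of the others. The median local background was 8.16 against 0.384 fragments in ΔCTCF and 19.4 against 0.696 in ΔCTCF/ΔMAZ. They lie in the 2 weakest of the 10 groups of untreated strength. The part of the high background in these peaks was not tested.

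The X chromosome kept fewer of its CTCF peaks than the autosomes. In ΔCTCF 18 of 533 (3.38%, 2.15 to 5.27) were residual against 8.94% (8.60 to 9.29) of autosomal peaks, and in ΔCTCF/ΔMAZ 24 of 579 (4.15%, 2.80 to 6.09) against 9.85% (9.49 to 10.2). X peaks were weaker before auxin, with a median fold enrichment of 9.99 against 13.3 in WT and 9.002 against 12.5 in ΔMAZ. In the strongest of 5 groups of untreated strength, the shares were 4 of 15 (26.7%, 10.9 to 51.9) against 31.3% in ΔCTCF and 11 of 34 (32.4%, 19.1 to 49.2) against 38.2% in ΔCTCF/ΔMAZ, a difference within counting error.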
